A study of Rattus norvegicus with 6 samples.

Results

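Transcripts of 74 cytokine, chemokine and cytokine receptor genes were measured in the medial prefrontal cortex of rats given LSD or saline, and none of them passed the test for a difference. They comprised every probe set on the array whose platform annotation named 1 gene of the interleukins and their receptors, the chemokines and their receptors, the tumour necrosis factor (TNF), interferon and TGF-beta families, the colony stimulating factors, or leukaemia inhibitory factor (LIF), ciliary neurotrophic factor (CNTF) and their receptors. The rule used names and no measured value. It matched 107 probe sets, of which 2 were control probe sets against mouse Il10 and Il4 and were left out. The remaining 105 probe sets, of 8740 tested, stood for 74 of 4736 genes, and 23 of these genes had several probe sets.

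Male Sprague-Dawley rats of 250 to 275 g received 1 mg/kg of LSD tartrate, a hallucinogenic serotonin receptor agonist, or saline by intraperitoneal injection, and tissue was taken 90 min later. Each group was read on 3 Affymetrix rat arrays, which measure a transcript with sets of short probes (probe sets). The labels give 4 animals per group with tissue pooled per group, whereas the study's text describes each array as a pool of 2 rats. The p-values, standard errors and intervals below therefore reflect array-to-array spread alone, possibly a technical one. Each sample description ends with a line naming the opposite treatment to that in its title and treatment label. Groups follow the titles and treatment labels. Under the opposite reading, all signs below would flip. The labelled tissue could be checked only roughly, since no detection calls were used and probe sets bind with different strength. As a guide, 7 of 11 measured neuron markers lay above the upper quartile of signal. In pooled bulk tissue, fewer cells of a type and less RNA per cell cannot be told apart.

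Cytokines are secreted proteins that bind surface receptors and switch on transcription factors, chiefly the STAT proteins, NF-kB and the SMAD proteins, while chemokines guide migrating cells through receptors coupled to G proteins. In the healthy brain most inflammatory cytokines are scarce, and microglia, astrocytes and endothelial cells make them after injury or infection. Some members have neuronal roles, among them Cx3cl1 (fractalkine), which neurons carry on their surface and whose receptor Cx3cr1 sits on microglia.

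Levels are log2 RMA values, the deposited scale, on which 1 unit is a 2-fold difference. Changes are LSD minus saline in log2 units with the standard error (SE) of the limma fit, and the brightest probe set stood for its gene unless stated. Levels of different genes are not set against each other, and ranks of signal serve only as a guide to how dim a probe set was. By that guide most of the genes were dim, with 56 of 74 below the median signal of all genes, and background hybridisation makes up more of a dim signal. For 13 of the 74 genes the brightest probe set had a name ending in _s_at, which marks probes that can match several transcripts.

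No member passed an adjusted p of 0.05 in limma (0 of 74 genes, beside 0.0211% of all genes), and the smallest adjusted p was 0.971. An unadjusted p below 0.05 was found for 1 member, Il6st, beside 3.63% of all genes. Of the 74 genes, 38 were nominally lower and 36 nominally higher after LSD. This was 51.4% lower, beside 48.3% of all genes. The median change was -0.0122, beside 0.00563 over all genes, and the range ran from -0.33 for Il1rn to 0.29 for Ifng. Genes for secreted ligands had a median of -0.0306 over 41 genes, of which 25 were nominally lower. Receptor genes had a median of 0.0141 over 32 genes, of which 12 were nominally lower.

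**Figure D1:**
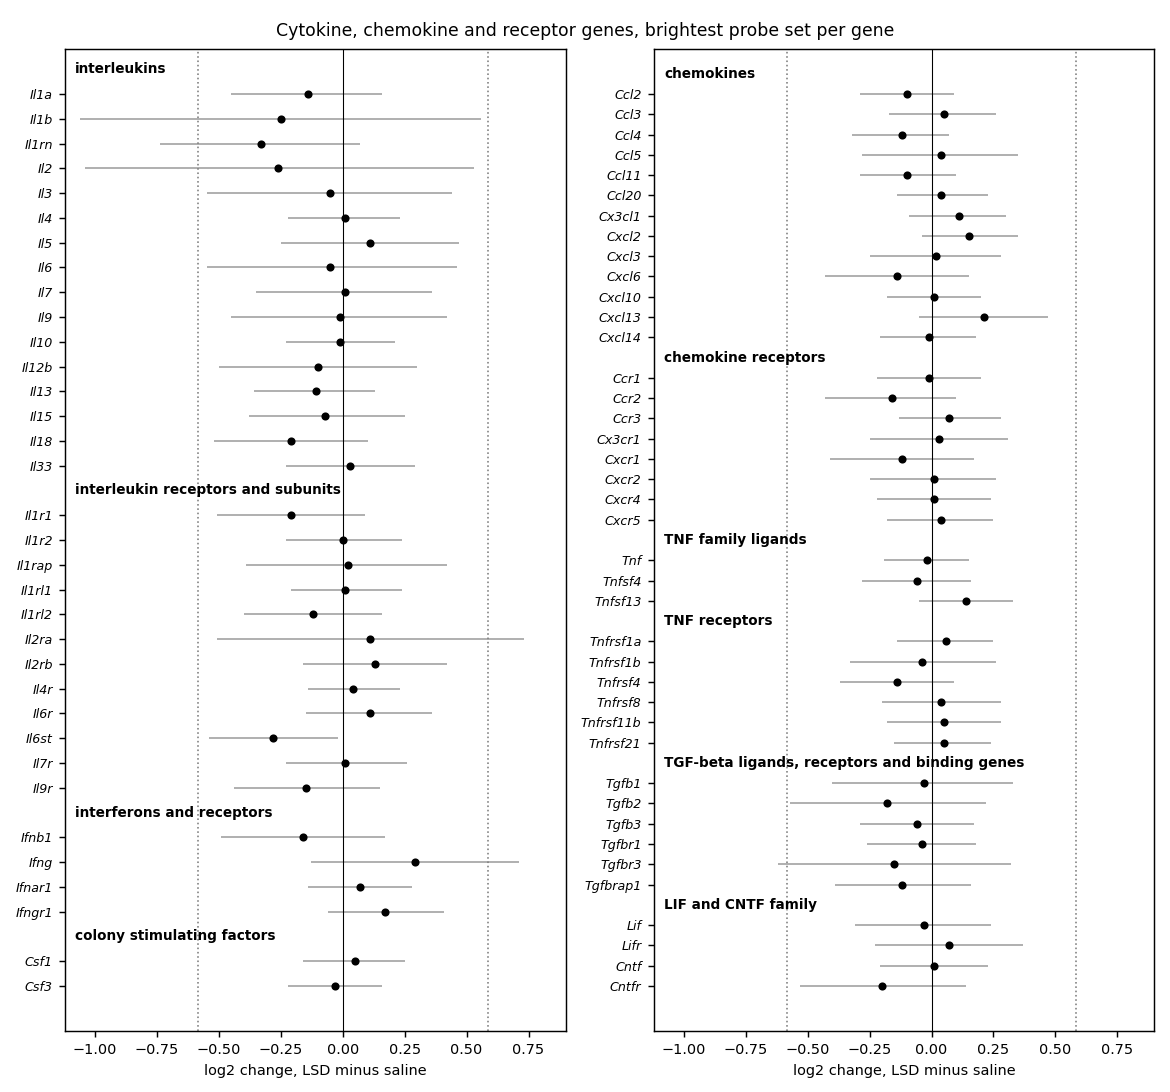
Change after LSD (horizontal axis, LSD minus saline in log2 units) of the 74 genes by role, 1 point per gene for its brightest probe set, with 95% intervals from limma and dotted lines at a 1.5-fold change. Points lie between -0.33 and 0.29, and the interval of Il6st was the only one that did not include 0.

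The fit bounded the size of the differences between these arrays. The 95% interval excluded a 1.5-fold rise for 72 of 74 genes (97% of all genes) and a 1.5-fold fall for 70 (96.4% of all genes). Both were excluded for 68 genes (94% of all genes), and a 2-fold change in either direction for 72 (99.2% of all genes). The widest intervals, given as LSD over saline, were those of Il1b (0.480 to 1.47) and Il2 (0.487 to 1.44), so a 2-fold fall of either was not excluded. The remaining exceptions at 1.5-fold were Il1rn (0.600 to 1.05), Tgfbr3 (0.651 to 1.25), Il2ra (0.702 to 1.66) and Ifng (0.912 to 1.64). Single probe sets were less tightly bounded, and 3 of the 105 did not exclude a 2-fold fall. These were the probe sets of Il2 and Il1b just named and Ifng AF010466_s_at (0.335 to 1.24), whose gene is represented by another probe set. A 1.5-fold change in either direction was not excluded for 13 of the 105, among them Tgfbr1 L26110_at (lower bound 0.522) and Tnfrsf1b rc_AA900380_at (lower bound 0.545). These intervals hold for values compressed by RMA, which understates changes of dim probe sets. Like the p-values they reflect array-to-array spread alone, so differences between animals may not be covered.

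The values of the 3 LSD arrays lay all above the 3 saline values in 3 genes (Cx3cl1, Cxcl2 and Tnfsf13), beside 6.97% of all genes, and all below in 1 gene (Il6st), beside 3.34%. Both directions together made 5.41% of the members and 10.3% of all genes. An exact test of 3 against 3 arrays cannot give a p below 0.1.

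Il6st encodes gp130, the signalling subunit shared by the receptors of interleukin 6, LIF, CNTF and related cytokines. Its 1 probe set read 5.07, 5.04 and 5.02 on Saline 1 to 3 and 4.52, 4.89 and 4.88 on LSD 1 to 3. The saline arrays lay close together, every LSD array was lower, and LSD 1 was the lowest. The change was -0.28 (SE 0.112, unadjusted p = 0.0354 and adjusted p = 0.971 in limma), and it was -0.16 without LSD 1. The subunits that pair with gp130 were Il6r, with a change of 0.11 (SE 0.113), Lifr with 0.07 (SE 0.131) and Cntfr with -0.20 (SE 0.145), and the groups overlapped in each. Without Saline 1 these were -0.01, -0.08 and -0.08, so 2 of the 3 signs turned. Il6st itself was then at -0.27 (SE 0.126), with an unadjusted p of 0.0704 in limma. The ligands of these receptors differed by -0.05 for Il6, -0.03 for Lif and 0.01 for Cntf.

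Cx3cl1 was read by 3 probe sets that did not share a direction. The brightest, rc_AA800602_s_at, read 9.58, 9.60 and 9.59 on the saline arrays and 9.82, 9.61 and 9.66 on the LSD arrays. It thus separated the groups upward by 0.11 (SE 0.0854), most of it on LSD 1. The probe set AF030358_at read 8.75, 8.75 and 8.87 after saline and 8.60, 8.64 and 8.62 after LSD. That separated the groups downward, with a change of -0.17 and an unadjusted p of 0.0735 in the limma fit over probe sets. The remaining probe set, AF030358_g_at, read 9.09, 9.15 and 8.85 against 8.93, 8.86 and 8.95, a change of -0.11 with overlapping groups. Their mean gave -0.06 (SE 0.0722) for the gene. Cx3cr1, the fractalkine receptor of microglia, differed by 0.03 (SE 0.123).

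**Figure D2:**
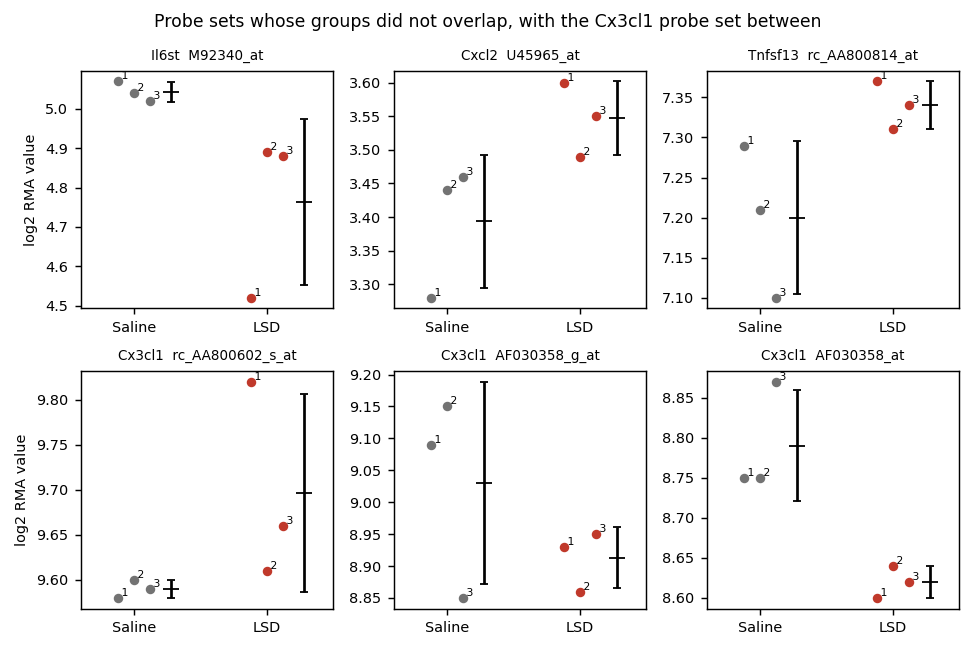
Signal on the log2 RMA scale (vertical axis) for probe sets whose saline and LSD arrays did not overlap, and of the overlapping Cx3cl1 probe set AF030358_g_at, with 1 numbered point per array (saline grey, LSD red). Black bars give each mean with its SD over 3 arrays. Il6st and the Cx3cl1 probe set AF030358_at are lower on all 3 LSD arrays, and Cxcl2, the Tnfsf13 probe set and the Cx3cl1 probe set rc_AA800602_s_at are higher.

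Among the 13 chemokine genes 8 were nominally higher and 5 nominally lower, with a median change of 0.0176 and 0 calls. Cxcl2, a chemoattractant for neutrophils, read 3.28, 3.44 and 3.46 after saline and 3.60, 3.49 and 3.55 after LSD. Every LSD array was above every saline array, though LSD 2 only just, and the change was 0.15 (SE 0.0865). Saline 1 was the lowest array, and without it the change was 0.09. Cxcl13, which attracts B cells, read 3.28, 3.09 and 3.04 against 3.39, 3.16 and 3.48, with overlapping groups and a change of 0.21 (SE 0.112). The monocyte chemoattractant Ccl2 read 3.89, 3.79 and 3.84 against 3.68, 3.70 and 3.84, a change of -0.10 (SE 0.0838). Ccl4, a chemokine made by macrophages, differed by -0.12 (SE 0.0861), and Cxcl14 by -0.01 (SE 0.0839). Of the 8 chemokine receptor genes 5 were nominally higher, with a median of 0.00697. The 3 of lowest p were Ccr2, the receptor of Ccl2 (-0.16, SE 0.117), Cxcr1, a receptor on neutrophils (-0.12, SE 0.126), and Ccr3, the receptor of eotaxins (0.07, SE 0.0893).

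Of the 16 interleukin genes 12 were nominally lower (75%, beside 48.3% of all genes), with a median change of -0.0588 and 0 calls. Without Saline 1 the sign turned upward for Il1b, Il2, Il3, Il6 and Il9, and downward for Il4 and Il5. Il1rn, whose product blocks the interleukin 1 receptor, read 5.80, 5.15 and 5.14 after saline and 4.88, 5.05 and 5.15 after LSD. Saline 1 stood above the other arrays, which overlapped, and the change of -0.33 (SE 0.176) was -0.12 without that array. The brightest probe set of Il1b, the main secreted form of interleukin 1, read 5.37, 4.01 and 3.94 against 4.42, 4.29 and 3.85. Its change of -0.25 (SE 0.353) turned to 0.21 without Saline 1. Il18, a cytokine that is activated by the inflammasome, read 4.04, 4.54 and 4.44 against 4.10, 4.26 and 4.03, a change of -0.21 (SE 0.137), and its other probe set gave -0.16. Il1a, the cell-associated form of interleukin 1, differed by -0.14 (SE 0.135), Il6 by -0.05 (SE 0.222) and Il15, a growth factor of natural killer cells, by -0.07 (SE 0.137).

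Of the 12 interleukin receptor and subunit genes 8 were nominally higher, with a median change of 0.0141. Il1r1, the signalling receptor of interleukin 1, was measured by 4 probe sets. The brightest read 4.99, 5.34 and 5.41 after saline and 5.01, 4.89 and 5.20 after LSD, a change of -0.21 (SE 0.131) with overlapping groups, whereas the mean of the 4 gave -0.04. Il9r, the interleukin 9 receptor, differed by -0.15 (SE 0.130) and Il1rl1, the receptor of interleukin 33, by 0.01 (SE 0.0982).

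In the TNF family, Tnf itself was among the most even members. It read 5.70, 5.72 and 5.72 after saline and 5.68, 5.67 and 5.74 after LSD, a change of -0.02 (SE 0.0744). Tnfsf13, which encodes the B cell survival factor APRIL, read 7.29, 7.21 and 7.10 against 7.37, 7.31 and 7.34 in its brightest probe set, where every LSD array was higher and the change was 0.14 (SE 0.0832). Its other probe sets gave 0.11 and -0.09, with overlapping groups, and the mean of the 3 was 0.05 (SE 0.0765). Tnfsf4, a co-stimulator of T cells, differed by -0.06 (SE 0.0955). Of the 6 receptor genes, 4 were nominally higher. Tnfrsf1a, the broadly expressed TNF receptor, differed by 0.06 (SE 0.0856), Tnfrsf4, the receptor of Tnfsf4, by -0.14 (SE 0.0993) and Tnfrsf21, the neuronal death receptor DR6, by 0.05 (SE 0.0852).

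Interferon gamma had the highest change of all members and also probe sets that went apart. The brightest probe set of Ifng over the 6 arrays, M29317_at, read 4.44, 4.42 and 4.64 after saline and 5.26, 4.57 and 4.54 after LSD. Only LSD 1 stood clearly above the saline arrays, and the change of 0.29 (SE 0.184) was 0.06 without LSD 1. The probe set AF010466_s_at read 5.96, 4.42 and 4.13 against 4.04, 4.29 and 4.29. Saline 1 alone was high, and the change of -0.63 was -0.07 without it. Ifngr1, the ligand-binding chain of the interferon gamma receptor, differed by 0.17 (SE 0.103) and Ifnb1, interferon beta, by -0.16 (SE 0.143).

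All 6 TGF-beta family genes were nominally lower, from -0.18 to -0.03 with a median of -0.0877, and none passed. Tgfb1, the widely expressed ligand, read 5.06, 5.63 and 5.59 after saline and 5.24, 5.40 and 5.54 after LSD. The groups overlapped, Saline 1 was the lowest array, and the change of -0.03 (SE 0.160) was -0.22 without it. Tgfb2, a ligand made by neurons and glia, differed by -0.18 (SE 0.172) and by 0.02 without Saline 1, so the shared sign did not hold without that array. Tgfbr3, the co-receptor betaglycan, differed by -0.15 (SE 0.205) and Tgfbrap1, a receptor-associated protein, by -0.12 (SE 0.120). The growth factors Csf1, on which microglia depend for survival, and Csf3, which drives neutrophil formation, differed by 0.05 (SE 0.0886) and -0.03 (SE 0.0834).

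Values far above the other arrays on Saline 1 were more frequent among the members than among probe sets at large. By rank alone, Saline 1 was the lowest array for 37 member probe sets (35.2%, beside 26.9% of all). It was the highest for 27 (25.7%, beside 20.5% of all). On that array 12 of 105 member probe sets (11.4%) lay over 0.5 log2 units above the mean of the other 5 arrays, beside 3.24% of all probe sets. Among probe sets below the median signal the shares were 13.9% of 72 members and 4.71% of all. On LSD 1 there were 4 such member probe sets (2.44% of all), on Saline 2 there was 1 (0.652% of all), and on Saline 3, LSD 2 and LSD 3 there were 0 (0.561%, 0.286% and 0.389% of all). In the opposite direction, 3 member probe sets (2.86%, beside 1.83% of all) lay over 0.5 below the mean of the other arrays on Saline 1. On LSD 3 there were 5 (4.76%, beside 1.26% of all), and all 5 were also among the 12 high on Saline 1. The mean set against LSD 3 includes Saline 1, so a high value there by itself puts LSD 3 further below. The overlap is therefore partly set by that value. LSD 3 was also the lowest array in each of these 5, which a high Saline 1 does not set. For Il2, LSD 3 read 2.56, with 3.13, 2.76, 3.47 and 3.19 on Saline 2, Saline 3, LSD 1 and LSD 2. The 12 belonged to 11 genes and 7 of them to interleukins, which had 28 probe sets. They were the probe sets of Il1b (1.26 and 1.00 above), Ifng (1.72), Il2 (1.07), Tnfrsf1b (0.90), Tgfbr3 (0.73), Il1rn (0.72), Il3 (0.66), Il1a (0.64), Tgfb2 (0.58), Il6 (0.52) and Ifnb1 (0.52).

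**Figure D3:**
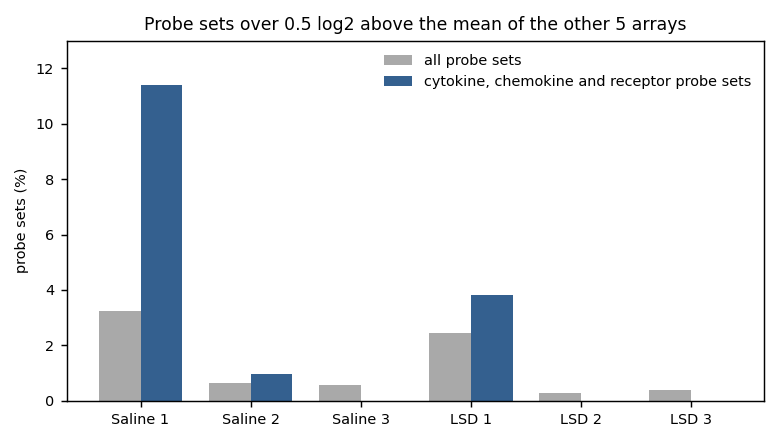
Share of probe sets (vertical axis, percent) over 0.5 log2 units above the mean of the other 5 arrays, for each array, with bars for the 105 member probe sets and for all 8740. On Saline 1 the shares are 11.4% and 3.24%, and on LSD 1 they are 3.81% and 2.44%.

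Other probe sets of the same genes were not high on that array. For 7 of the 11 genes there were 8 further probe sets, and their Saline 1 values lay between 0.30 below and 0.05 above the mean of the other arrays. Il1b had M98820_g_at at 4.76 on Saline 1, with 3.71, 3.62, 4.07, 3.98 and 3.43 on Saline 2, Saline 3 and LSD 1 to 3, whereas E01884cds_s_at was at its lowest there, with 3.18 against 3.74, 3.55, 3.31, 3.47 and 3.36. Il6, which activates gp130, had M26744_at at 4.04, 3.43 and 3.43 after saline and 3.89, 3.71 and 3.16 after LSD. Its second probe set, M26745cds_s_at, read 3.52, 3.77 and 3.55 against 3.64, 3.48 and 3.57, with Saline 1 inside the range of the others. Il2, the T cell growth factor, had 1 probe set, which read 4.10, 3.13 and 2.76 against 3.47, 3.19 and 2.56. LSD 1 was the second highest array in 7 of the 12 probe sets and LSD 3 the lowest in 6.

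All 12 were nominally lower after LSD with all arrays, from -0.63 to -0.05, and 2 of them without Saline 1, from -0.12 to 0.21 over the 12. The 12 were picked for a high value on Saline 1, which raises the saline mean. Their direction, and its loss without that array, were thus largely set by the selection. Without that array, 39 of the 74 genes were nominally lower, beside 49.2% of all genes, and the median was -0.0185. An unadjusted p below 0.05 was then found for 7 genes (9.46%), beside 9.31% of all genes. Nominally lower were Il18 (-0.36), Il1r1 (-0.34), Il12b, a subunit of interleukins 12 and 23 (-0.32), Il1a (-0.27) and Cxcr1 (-0.26). Nominally higher were Cxcl13 (0.28) and Ifngr1 (0.25). None of the 7 had an adjusted p below 0.498, and Il6st was not among them. Without Saline 1 the sign also turned for further members. Among them were Il3 (0.21), Il6 (0.16), Il2 (0.13), Tgfbr3 (0.12), Ifnb1 (0.01) and Cntf (-0.05). The change of Ccr2 went from -0.16 to -0.07, that of Tnfrsf4 from -0.14 to -0.08 and that of Il15 from -0.07 to -0.20. Il9r went from -0.15 to -0.25 and Lif from -0.03 to -0.14. What set Saline 1 apart was not tested. Il2, Il3, Il4, Il5, Il9, Il12b, Tnfrsf1b, Tgfbr1 and Il2ra were singled out after their values were seen. Il6r, Cntf and Cx3cr1 also fall outside the rule for named genes, and are given beside their receptor or ligand partners.

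**Figure D4:**
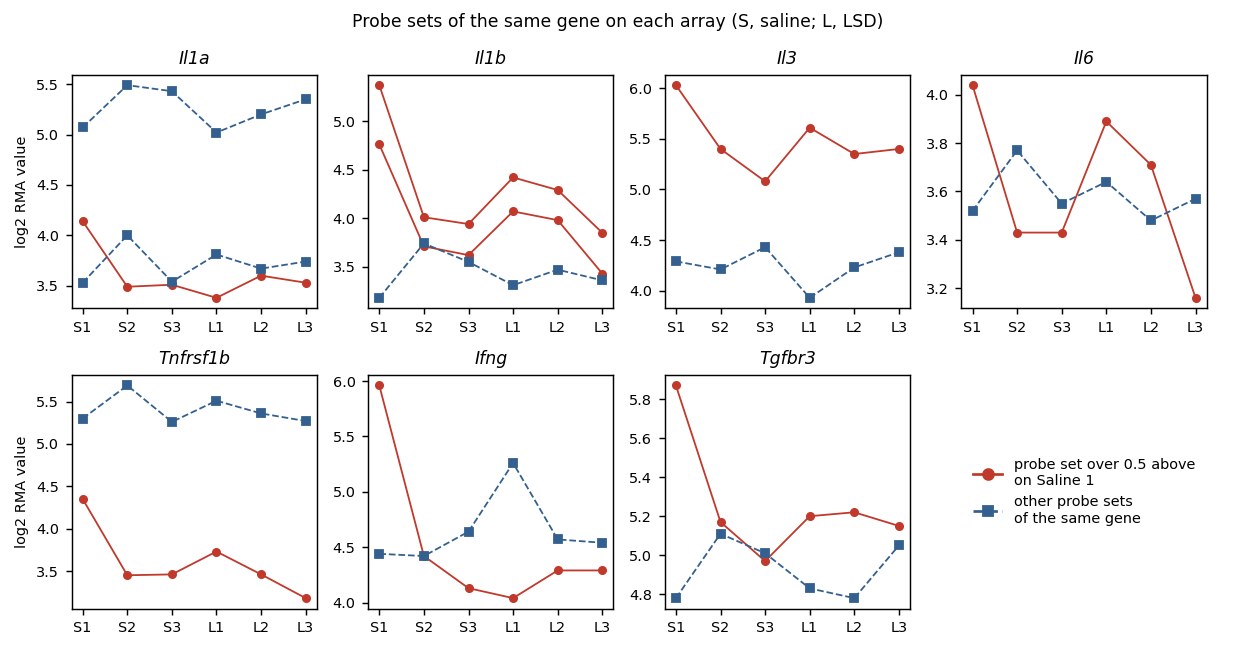
Log2 RMA values (vertical axis) on each of the 6 arrays (horizontal axis) for genes with 1 probe set high on Saline 1 and at least 1 that was not, with 1 line per probe set (red where over 0.5 above the other arrays on Saline 1, blue otherwise). The Ifng probe set AF010466_s_at reads 5.96 on Saline 1 while M29317_at reads 4.44, and the Il1b probe set M98820_at reads 5.37 while E01884cds_s_at reads 3.18.

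Averaging all probe sets of a gene, in place of taking the brightest, left the direction count near that above but separated fewer genes. With the mean, 39 of 74 genes were nominally lower, the median change was -0.0162, and 0 genes passed, beside 0.0845% of all genes. Il6st was again the 1 gene with an unadjusted p below 0.05, beside 3.89% of all genes. The groups separated upward in 1 gene, Cxcl2, beside 7.07% of all genes, and downward in 1, Il6st, beside 3.02%, where the brightest probe sets had separated 3 and 1. Over single probe sets 0 of 105 passed, beside 0.0686% of all probe sets, and the groups separated upward in 3 (6.58% of all) and downward in 2 (3.79% of all).

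The sign of the change depended on this choice in 5 of the 23 genes with several probe sets (21.7%), beside 23.5% of the 1565 such genes on the array. Ifng went from 0.29 to -0.17, Cx3cl1 from 0.11 to -0.06, Il15 from -0.07 to 0.08, Il1rl1 from 0.01 to -0.05 and Cxcl14 from -0.01 to 0.03. In 8 of the 23 genes (34.8%) single probe sets had both signs, beside 49.0% of all such genes. The median absolute difference between the choices was 0.0419 for the members and 0.0517 for the other genes. Role groups kept their medians' signs except the interferon genes, whose median of 0.122 over 4 genes became -0.0467 with Ifng. For Ifng the mean of probe sets was in turn 0.09 without Saline 1.

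**Figure D5:**
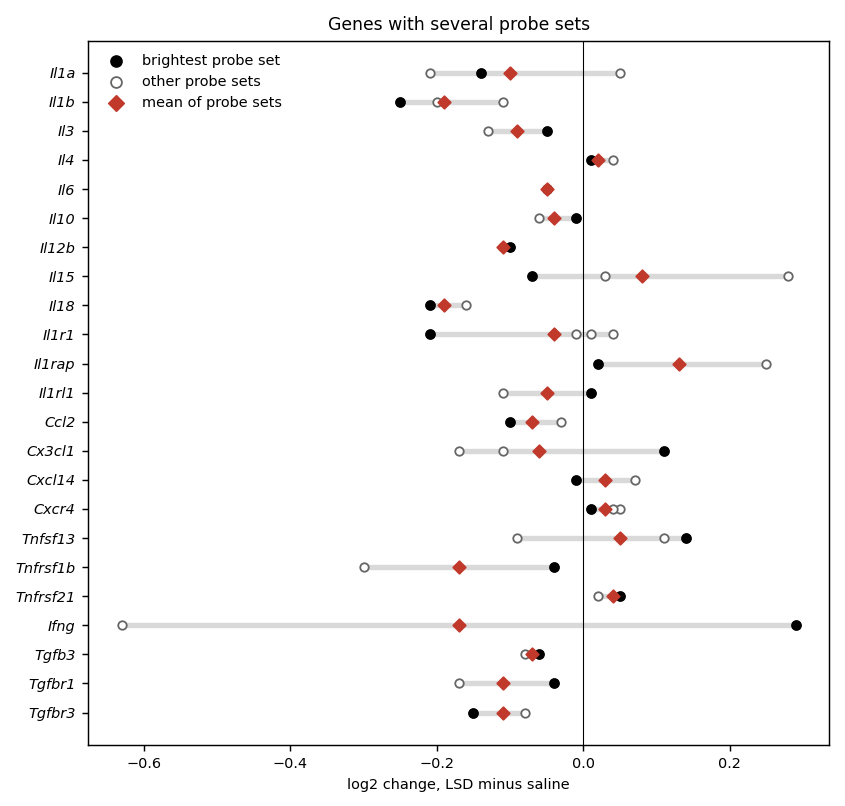
Change after LSD (horizontal axis, log2 units) for the 23 genes with several probe sets, by the brightest probe set and by the mean of probe sets, with the single probe sets behind them. The longest distance is that of Ifng, from 0.29 to -0.17.

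Promoter sequence was read for the genes whose RefSeq window, 250 bases before to 50 after the start on GRCr8, lay at the outermost start of the gene, which held for 33 of the 74. The NF-kB consensus motif, searched on both strands like the motifs below and with overlapping matches counted, was found in 7 of the 33 (21.2%), beside 6.77% of 19339 such windows. The AP-1 motif TGANTCA was found in 8 (24.2%), beside 8.0%, and the STAT motif TTCNNNGAA in 0, beside 9.34%. Genes with an NF-kB match differed by -0.16 to 0.15, 4 of the 7 nominally lower, and those with an AP-1 match by -0.21 to 0.07, 4 of the 8 nominally lower. Shown here are Cxcl2, whose groups separated upward and which held 2 overlapping matches, and Il6 and Il1b, which had 1 of 2 and 2 of 3 probe sets high on Saline 1. Capitals mark the NF-kB matches, and Il1b held none of the 3 motifs. They are given 5′ to 3′ on the gene's strand, the minus strand in each case, at chr14:17467206-17467505 for Cxcl2, chr4:5894526-5894825 for Il6 and chr3:137036532-137036831 for Il1b.
Cxcl2: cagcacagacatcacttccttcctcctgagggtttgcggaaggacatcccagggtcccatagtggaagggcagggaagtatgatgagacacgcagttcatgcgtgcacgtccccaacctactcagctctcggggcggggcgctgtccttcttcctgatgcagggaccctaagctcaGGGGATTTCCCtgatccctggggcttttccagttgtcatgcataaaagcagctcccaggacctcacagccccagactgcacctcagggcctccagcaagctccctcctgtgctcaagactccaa
Il6: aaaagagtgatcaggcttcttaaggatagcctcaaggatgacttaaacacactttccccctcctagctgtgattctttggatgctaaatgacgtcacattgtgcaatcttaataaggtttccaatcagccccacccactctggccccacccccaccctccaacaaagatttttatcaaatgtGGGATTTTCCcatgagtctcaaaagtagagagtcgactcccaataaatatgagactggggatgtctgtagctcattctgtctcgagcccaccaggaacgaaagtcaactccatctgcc
Il1b: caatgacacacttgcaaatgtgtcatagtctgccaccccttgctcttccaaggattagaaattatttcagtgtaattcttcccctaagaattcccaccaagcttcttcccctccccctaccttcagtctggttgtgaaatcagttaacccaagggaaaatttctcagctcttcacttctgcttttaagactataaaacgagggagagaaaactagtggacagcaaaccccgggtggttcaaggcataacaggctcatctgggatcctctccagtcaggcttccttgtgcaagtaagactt
The matches in Cxcl2 began 74 and 73 bases before the start and that in Il6 began 68 bases before it. The array files name no genome build, so these windows place the genes and not the probes.

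The pathway downstream of the receptors was read by 27 measured genes of signal transducers and their inhibitors, of which 20 were nominally lower (median -0.0803) and 0 passed. Without Saline 1, 14 of the 27 were nominally lower with a median of -0.0347. Nfkbia, the inhibitor of NF-kB that is itself an NF-kB target, read 6.39, 6.30 and 6.33 after saline and 6.23, 6.24 and 6.05 after LSD, lower on every LSD array by -0.17 (SE 0.0861). Jak3, the kinase of the common gamma chain, read 5.71, 5.45 and 5.45 against 5.72, 5.76 and 5.82, higher on every LSD array by 0.23 (SE 0.0967, unadjusted p = 0.0423 in limma). Jak1, the kinase shared by gp130 and interferon receptors, differed by -0.25 (SE 0.126) and the TNF receptor adaptor Traf2 by 0.24 (SE 0.133).

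Of 35 measured genes that cells transcribe after inflammatory cytokines, interferons or TGF-beta, 16 were nominally higher and 19 nominally lower, with a median change of -0.00866 and 0 passing. The highest change was that of Sod2, the mitochondrial superoxide dismutase induced by NF-kB, which read 5.98, 5.56 and 5.26 after saline and 6.21, 6.07 and 6.94 after LSD. Every LSD array was above every saline array and LSD 3 was the highest, with a change of 0.80 (SE 0.248, unadjusted p = 0.0112 and adjusted p = 0.971 in limma). Gch1, the first enzyme of tetrahydrobiopterin synthesis, read 4.12, 4.03 and 4.03 against 4.27, 4.28 and 4.32, also without overlap, a change of 0.23 (SE 0.0765). In the opposite direction stood the interferon-induced genes Psmb9, an immunoproteasome subunit (-0.28, SE 0.146), and Mx2 (-0.20, SE 0.104). Psmb9 read 6.11, 5.62 and 5.62 after saline and 5.33, 5.58 and 5.59 after LSD, also without overlap, though only just. Its change was -0.12 without Saline 1.

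Markers of the cells that make or receive these signals passed in no list. Of 13 microglia and macrophage markers 8 were nominally higher (median 0.0706), and their summed linear level ran from 1778 to 1882 on the saline arrays and from 1843 to 1929 on the LSD arrays. Cd74, the invariant chain of MHC class II, differed by 0.26 (SE 0.111), or 0.14 without Saline 1, and Ptprc, the leukocyte marker CD45, by -0.22 (SE 0.125). Medians were 0.019 for 9 astrocyte, 0.0208 for 8 oligodendrocyte, -0.0307 for 10 endothelial and mural, -0.0154 for 12 blood cell, -0.0385 for 12 choroid plexus and meninges, and 0.0642 for 11 neuron markers. Single markers within a list went apart. Among astrocyte markers the water channel Aqp4 was higher on every LSD array by 0.41 (SE 0.132, 0.26 without Saline 1), the glutamate transporter Slc1a3 lower on every LSD array by -0.25 (SE 0.101), and S100b differed by -0.24 (SE 0.0954). The neuron markers Syt1 (0.33, SE 0.0869), Nefm (0.37, SE 0.106) and Nefl (0.22, SE 0.0897) were higher on every LSD array, whereas Gad1 differed by -0.20 (SE 0.10). The choroid plexus and meninges markers Ttr (-0.49, SE 0.0864, adjusted p = 0.319 in limma) and Igf2 (-0.24, SE 0.0825) were lower on every LSD array, Enpp2 differed by -0.41 (SE 0.153) and Col1a1 by 0.13 (SE 0.0814). The part of cell composition in the values of the cytokine genes was not tested.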

How the data were processed

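RNA from the medial prefrontal cortex was hybridised to 6 Affymetrix arrays. The deposited log2 values were made by the authors with the rma function of affy (background correction, quantile normalization and summarisation of probes, version not given in the sources used here). Array medians lay between 5.43 and 5.45. Quantile normalization hides a change shared by most transcripts. Arrays have no read depth, and their number limits the precision. Samples were grouped by title and treatment label.

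Of 8799 probe sets 59 controls were left out, and 7006 of the other 8740 had 1 symbol in the platform annotation. Member symbols were checked by gene ID against RefSeq (105 of 105 matched, 0 changed). A gene was represented by its brightest probe set on average, as in the study's methods. The comparison of LSD with saline used limma 3.58.1 under R 4.3.3, with lmFit followed by eBayes, two-sided and without covariates, and Benjamini-Hochberg adjustment over all 4736 genes or 8740 probe sets. The script was tested on simulated data.

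Genes named were members with an unadjusted p below 0.05, the 3 of lowest p per role, those whose sign differed between brightest and mean, up to 4 per list of other genes, and Il1b, Il6, Tnf, Ifng, Tgfb1, Ccl2, Cx3cl1, Il6st and Csf1. Members named outside this rule are listed above. The members and lists were chosen with earlier results of these data known. Alternatives were other scalings, a filter on dim probe sets, other variance models, a block for the replicate number, other rules for genes with several probe sets and leaving out each array.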

Additional observations from a re-analysis of the deposited data

How the results depend on the processing

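With an adjusted p threshold of 0.05 in limma, 0 member genes and 0 member probe sets passed under any alternative run. An unadjusted p below 0.05 was found for 8 member genes with array weights and for 7 without Saline 1, beside 1 with all arrays. The share of all genes also rose without Saline 1, to 9.31% from 3.63% with all arrays. With array weights that share is not given here, so the 8 are no result about the members. The 37 named genes gave 569 values under alternatives, of which 40 had another sign, and 20 genes kept their sign throughout. Il6st stayed between -0.34 and -0.16. The median change of the members became 0.0045 with array weights. Member genes separated downward numbered 2 with quantile normalization, 4 with cyclic loess, 0 with the filter on dim probe sets and 2 with unsuffixed probe sets first. Those separated upward numbered 1 with the mean of probe sets and 1 with the most variable probe set. Shares of all genes are given above for the mean of probe sets alone, so the other counts are no result about the members. With the filter on dim probe sets 15 genes were lower. The cause was not tested, apart from the filter, which leaves fewer genes.

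List medians moved for neuron markers to 0.163 (quantile normalization), 0.113 (cyclic loess), 0.133 (filter) and 0.122 (most variable probe set, and likewise unsuffixed probe sets first). They moved for signal transducers to -0.0311 (filter) and -0.0377 (array weights), and for response genes to -0.0349 (filter), 0.0142 (array weights) and -0.0441 (most variable probe set). Blood cell markers gave -0.058 (filter), astrocyte -0.0396 and oligodendrocyte markers -0.0502 (array weights), and microglia markers 0.015 (unsuffixed probe sets first). With an intensity trend and robust prior 1 choroid plexus marker passed.

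Leaving out each array gave 0 to 0 calls, member medians from -0.0201 to -0.00733, 38 to 43 genes lower, 4 to 6 separated upward and 1 to 10 downward, with fewer arrays to separate. The 10 came without Saline 1, followed by 6 without Saline 3 or LSD 3, 5 without LSD 2 and 3 without LSD 1. Groups of fewer arrays separate more easily, and the shares of all genes at these settings are not given here. The counts of separated genes are therefore no result about the members. List medians then ran from -0.0878 to -0.0347 (signal transducers), -0.00762 to 0.0519 (response), -0.00477 to 0.12 (microglia), -0.0194 to 0.0538 (astrocyte), -0.0345 to 0.0694 (oligodendrocyte), -0.0702 to 0.00736 (endothelial), -0.0383 to 0.00542 (blood), -0.0628 to 0.0204 (choroid plexus) and 0.0313 to 0.0949 (neuron). Deviations of saline and LSD arrays with the same replicate number had correlations of -0.0238, -0.229 and 0.154. Those of arrays with different numbers ran from -0.139 to 0.203. The replicate block gave 0 calls and a member median of -0.0122.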
